A study of Homo sapiens with 6 samples.

Results

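The pappalysins PAPPA and PAPPA2, the stanniocalcins STC1 and STC2, the IGF-binding proteins IGFBP3, IGFBP4, IGFBP6 and IGFBP7, and the receptors IGF1R and IGF2R were followed after knockdown of the actin regulator VASP. These 10 genes, of 61155 symbols in the deposited count table, were chosen by name from the insulin-like growth factor (IGF) axis, and the choice was made with the fold changes of this same comparison known. Their fold changes are therefore given as a description, without p-values. Whether a member passed the test's threshold is likewise a description and no evidence for a change. RNA came from cells of MDA-MB-231, a human line derived from a breast cancer, grown with serum and added insulin. The control group held 3 libraries, which the titles name plko and the characteristics name negative control siRNA. The knockdown group held 3 libraries, named shVASP in the titles and VASP siRNA in the characteristics. Which kind of reagent was used is not settled by the labels, and the treatment notes describe a transient transfection with harvest after 48 hours. No stable clone, drug or further genotype is named for either group.

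IGFs act through IGF1R, a receptor tyrosine kinase that feeds the PI3K-AKT and RAS-ERK pathways. IGF-binding proteins hold IGFs in the extracellular space and keep them from the receptor, and proteases release the ligand by cutting the binding protein. PAPPA is the metalloproteinase that cuts IGFBP4, PAPPA2 cuts IGFBP3 and IGFBP5, and STC1 and STC2 are secreted glycoproteins that inhibit the pappalysins. IGF2R, the cation-independent mannose 6-phosphate receptor, takes up IGF2 for degradation and sorts lysosomal enzymes.

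Libraries held 28856610 to 30055503 counts. VASP, the targeted gene, went from 155.7 to 173.7 CPM (counts scaled to library size, with TMM factors) in control libraries to 12.3 to 12.9 CPM in knockdown libraries. Of the marker lists, the 5 mesenchymal markers of this line summed to 4473 to 4568 CPM without and 4415 to 4464 CPM with knockdown. Within that list the means of AXL and CAV1 were lower after knockdown and those of VIM, CD44 and ZEB1 higher. The 5 leukocyte markers summed to 0.138 to 0.456 CPM over the 6 libraries. The 7 fibroblast markers summed to 6.40 to 7.90 CPM, with DCN and LUM at 0 counts in every library. The sums of the 3 endothelial markers were 2.696 to 3.43 CPM without and 1.91 to 2.44 CPM with knockdown, and those of the 6 luminal markers 13.7 to 15.1 and 12.4 to 13.0 CPM. The part of these marker differences in any result was not tested. In bulk RNA, fewer cells that express a gene and less RNA per cell cannot be told apart.

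The members covered a wide range of levels, compared here per length as CPM per kilobase of exon. IGFBP4 was highest, at 325.8 ± 37.4 in control (SD, n = 3), followed by IGFBP7 at 97.4 ± 5.22 and IGFBP6 at 69.1 ± 10.5. IGF2R stood at 18.8 ± 1.35, IGFBP3 at 13.5 ± 0.833, STC1 at 13.5 ± 2.57 and IGF1R at 6.63 ± 0.0441 on the same scale (n = 3 each). STC2, PAPPA2 and PAPPA were the lowest, at 0.641 ± 0.0700, 0.537 ± 0.0581 and 0.0317 ± 0.00162 CPM per kilobase. Neighbours in this order did not overlap over the control libraries, except IGFBP3 with STC1 and STC2 with PAPPA2. The order of the means was the same after knockdown, where the ranges of STC2 and PAPPA2 no longer overlapped. In both groups the binding proteins other than IGFBP3 therefore had the highest means of the set. The pappalysins had the lowest means, though in control PAPPA2 was not separated from STC2.

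**Figure D1:**
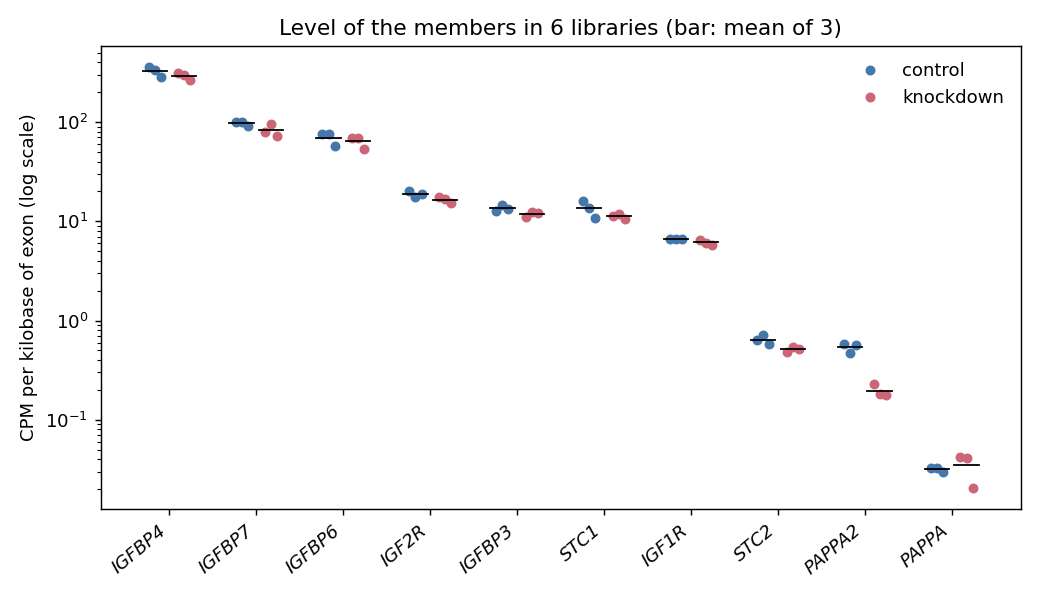
Level of each member in CPM per kilobase of exon on a log axis, with 1 point per library (blue control, red knockdown) and a bar at the mean of 3. IGFBP4 is the highest in both groups and PAPPA the lowest, and PAPPA2 is the member whose groups lie farthest apart.

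The promoters of the pappalysin that fell, of its relative near the floor and of the most abundant member are shown for comparison (RefSeq, GRCh38.p14, from 250 bases before to 50 bases after the gene start, plus strand, any TATAAA in capitals). They lie at chr1:176462925-176463224 for PAPPA2, chr9:116153541-116153840 for PAPPA and chr17:40443200-40443499 for IGFBP4.
PAPPA2: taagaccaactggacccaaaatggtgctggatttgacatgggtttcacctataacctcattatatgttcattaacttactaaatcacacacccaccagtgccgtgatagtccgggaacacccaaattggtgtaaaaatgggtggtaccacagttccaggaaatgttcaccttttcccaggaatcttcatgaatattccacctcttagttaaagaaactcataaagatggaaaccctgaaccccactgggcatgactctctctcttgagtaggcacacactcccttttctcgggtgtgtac
PAPPA: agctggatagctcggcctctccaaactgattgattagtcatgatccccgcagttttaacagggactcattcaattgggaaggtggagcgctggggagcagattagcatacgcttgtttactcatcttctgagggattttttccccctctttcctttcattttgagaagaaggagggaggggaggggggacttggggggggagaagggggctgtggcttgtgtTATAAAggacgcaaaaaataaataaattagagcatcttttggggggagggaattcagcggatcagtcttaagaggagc
IGFBP4: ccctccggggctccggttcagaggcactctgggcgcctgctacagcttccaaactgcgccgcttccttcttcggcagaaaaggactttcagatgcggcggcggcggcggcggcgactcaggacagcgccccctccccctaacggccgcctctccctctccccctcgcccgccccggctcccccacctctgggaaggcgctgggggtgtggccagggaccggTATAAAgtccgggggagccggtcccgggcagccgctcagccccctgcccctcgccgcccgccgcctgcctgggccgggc
PAPPA and IGFBP4, at opposite ends of the order of levels, each held a TATAAA whose first base lies 28 and 29 bases upstream of the start. No TATAAA was found in the PAPPA2 window on either strand. Promoter windows were examined for 8 of the 10 members. STC1 and IGFBP7 were not among them, which does not show that RefSeq lacks a promoter for either gene. Of these 8, PAPPA and IGFBP4 held TATAAA, against 11.5% of 35116 promoters of the same length. The GC box GGGCGG, on either strand, was found in 5 of the 8 (IGF1R, IGF2R, IGFBP3, IGFBP4 and IGFBP6), against 45.0% of all promoters. The AP-1 word TGANTCA was in none of the 8 (7.71% of all), the TEAD word GGAATG in IGFBP6 (14% of all), and the FOXO word GTAAACA in IGFBP6 and PAPPA (3.42% of all). The GC content of the window was 44.0% for PAPPA2 and 48.7% for PAPPA, and ran from 61.7% to 79.7% in the other 6.

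All 10 members passed the filter on low counts and entered the test across 16633 genes. In that test (edgeR, adjusted p under 0.05) PAPPA2, IGFBP3 and IGF2R were past the threshold, all lower after knockdown, and the other 7 members were not. The count of members past the threshold was 6 without control library 3, where STC1, STC2 and IGFBP4 joined them. It was also 6 without the filter on low counts, where STC1, IGFBP4 and IGFBP7 joined them. With a replicate block, built on the last number of each column name, it was 8, all lower, with only PAPPA and STC2 not past the threshold. The block called more genes in all, 6921 against 6187 in the main fit. With a correction for GC content and length the count of members was 2. Leaving out control library 1, control library 2 or knockdown library 3 also gave 2. The background in the main fit was 37.2% of all genes tested called, 18.3% lower and 18.9% higher. Nothing is read from the count of 3, because the same contrast was known when the members were chosen. The log2 fold change was below 0 in 9 of the 10, with a median of -0.19 against -0.0077 over all genes tested. With a correction for GC content and length 7 of 10 were below 0, since IGFBP4 and IGFBP6, the members with the most GC-rich transcripts (62.5% and 64.1%), moved above 0. Groups did not overlap in 4 members (PAPPA2, STC2, IGFBP3 and IGF1R, each lower after knockdown), where 47.6% of all genes tested did not overlap.

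**Figure D2:**
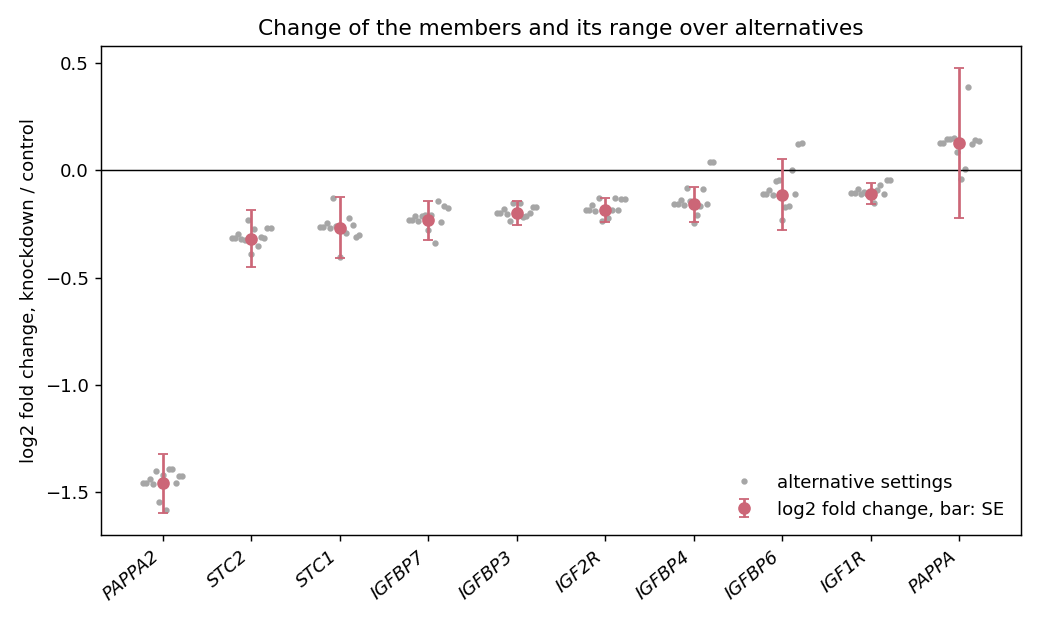
Log2 fold change of each member, knockdown against control, with its SE (red), and the same value under each alternative setting (grey). PAPPA2 lies between -1.58 and -1.39 under every alternative, the other members run from -0.40 (STC1) to 0.39 (PAPPA), and the values of PAPPA, IGFBP4 and IGFBP6 fall on both sides of 0.

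Among the proteases, PAPPA2 was the member with the largest change. PAPPA2 (ENSG00000116183, GRCh38 chromosome 1, 176463171 to 176845601, plus strand, 10926 bases of exons) was counted 184, 149 and 178 times without knockdown and 76, 58 and 57 times with it. These are 6.31, 5.14 and 6.15 CPM against 2.48, 1.96 and 1.94 CPM, so every knockdown library lay below every control library. The level was 2.75-fold lower (log2 fold change -1.46, SE 0.14), which placed PAPPA2 at position 20 from the lowest fold change of 16633 genes. PAPPA (ENSG00000182752, chromosome 9, 116153791 to 116402321, plus strand) had 11, 11 and 10 counts in control and 15, 14 and 7 in knockdown libraries. At 0.367 ± 0.0188 and 0.40 ± 0.14 CPM (n = 3 each) it stood little above the floor of 3 counts, which is 0.0998 to 0.104 CPM. Its log2 fold change of 0.13 had an SE of 0.35, so only a large change could have been seen at this depth, and the value was -0.041 without knockdown library 1. PAPPA-AS1, an antisense gene that shares exon sequence with PAPPA, had 0 counts in every library. The counting command leaves out fragments that hit both genes, so the counts of PAPPA and of PAPPA-AS1 may both be too low.

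The inhibitors of the pappalysins were lower on average after knockdown, without passing the threshold. STC1 (ENSG00000159167, chromosome 8, 23841929 to 23854806, minus strand) had 66.0, 56.6 and 44.8 CPM in control and 47.1, 48.5 and 43.4 CPM in knockdown libraries. The lowest control library lay among the knockdown libraries (log2 fold change -0.27, SE 0.14). Without control library 1, the highest, the log2 fold change was -0.13, and without control library 3, the lowest, it was -0.40 and past the threshold. STC2 (ENSG00000113739, chromosome 5, 173314713 to 173329503, minus strand) had 113, 127 and 102 counts in control and 91, 99 and 92 in knockdown libraries. Its level went from 3.93 ± 0.429 to 3.15 ± 0.191 CPM (n = 3 each), and the groups did not overlap (log2 fold change -0.32, SE 0.13). Without control library 3 STC2 also passed the threshold, at -0.39.

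Of the binding proteins, IGFBP3, the main carrier of IGFs in serum, was past the threshold with a small change. IGFBP3 (ENSG00000146674, chromosome 7, 45912245 to 45921874, minus strand) had 58.6, 66.1 and 61.0 CPM in control and 50.5, 56.1 and 55.2 CPM in knockdown libraries. The groups did not overlap, and the level was 1.15-fold lower (log2 fold change -0.20, SE 0.06). It was not past the threshold without control library 2 or without knockdown library 1, where the log2 fold change was -0.15 in each.

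IGFBP4, the substrate of PAPPA (ENSG00000141753, chromosome 17, 40443450 to 40457725, plus strand), had 793, 733 and 630 CPM in control and 690, 660 and 581 CPM in knockdown libraries. The groups overlapped (log2 fold change -0.16, SE 0.08), and the sign turned with the correction for GC content and length, to 0.039. Leaving out 1 library moved it both ways, to -0.081 without control library 1, to -0.088 without knockdown library 3, and to -0.24 and past the threshold without control library 3. IGFBP6, which prefers IGF2 (ENSG00000167779, chromosome 12, 53097436 to 53102345, plus strand), had 101, 102 and 76.7 CPM in control and 92.8, 93.3 and 72.0 CPM in knockdown libraries. In each group 1 library stood well below the other 2, and that gap exceeded the difference between the groups (log2 fold change -0.11, SE 0.16, and 0.13 with the GC and length correction). Its log2 fold change was 0.0022 without knockdown library 3 and -0.23 without control library 3.

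IGFBP7, a secreted relative that binds IGFs weakly (ENSG00000163453, chromosome 4, 57030773 to 57110385, minus strand), had 193, 195 and 176 CPM in control and 155, 185 and 140 CPM in knockdown libraries. Knockdown library 2 lay within the control range (log2 fold change -0.23, SE 0.09). Without that library the log2 fold change was -0.34 and past the threshold, and without knockdown library 3 it was -0.14 and not past it. Exons of IGFBP7 overlap those of POLR2B and IGFBP7-AS1 on the other strand, and the counting command names no strand option. POLR2B stood at 162 to 167 CPM in control and 174 to 188 CPM in knockdown libraries, and IGFBP7-AS1 had at most 13 counts in a library.

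The receptors moved little. IGF2R (ENSG00000197081, chromosome 6, 159969099 to 160113507, plus strand) had 360, 312 and 336 CPM in control and 312, 301 and 274 CPM in knockdown libraries. The highest knockdown library met the lowest control library, and the level was 1.14-fold lower (log2 fold change -0.18, SE 0.06). IGF2R was past the threshold, but not without control library 1, without knockdown library 3 or with the GC and length correction, where the log2 fold change was -0.13 in each case. IGF1R (ENSG00000140443, chromosome 15, 98648539 to 98964530, plus strand) had 93.1, 92.2 and 92.0 CPM in control and 91.3, 84.9 and 81.0 CPM in knockdown libraries. Its groups did not overlap, with a log2 fold change of -0.11 (SE 0.05) that was -0.043 with the GC and length correction. Without knockdown library 1 IGF1R was past the threshold, at -0.15, and without knockdown library 3 it was at -0.066 and not past it.

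Library 3 of each group was often the lowest among the members. Control library 3 was the lowest of its group for 7 of the 10 members, against 33% of all genes tested. Knockdown library 3 was the lowest for 8, against 33.9%. In control the gap was small for PAPPA (10 against 11 and 11 counts) and IGF1R (91.95 against 92.17 and 93.11 CPM). Both held for 6 members, against 15.5% of all genes tested. Within control, the coefficient of variation of CPM, which includes counting error, ran from 0.665% for IGF1R to 15.2% for IGFBP6 and 19.0% for STC1. The biological coefficient of variation over all genes was 4.81% by edgeR. That measure leaves out counting error and covers both groups, so it is not on the same scale. The members share these libraries, so they are not independent observations of the pattern, and what set the libraries apart was not tested.

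Few or no fragments were assigned to the ligands. IGF1 had 1 count and IGF2 had 1 count over all 6 libraries together, and INS had 0 in every library, below the floor of 3 counts. Exons of IGF2 overlap those of INS-IGF2, IGF2-AS and other genes, exons of INS those of INS-IGF2, and exons of IGF1 those of HELLPAR. Fragments that hit both genes are left out by the counting command, so these low counts do not show that the ligands were absent. Of the binding proteins outside the set, IGFBP2 had 0, 0 and 1 counts in control and 2, 4 and 3 in knockdown libraries, and IGFBP5 had 3, 4 and 1 against 1, 0 and 3. These 5 genes were too low to be tested. IGFBP1 was measured at 28.9 ± 1.26 CPM without and 26.5 ± 1.75 CPM with knockdown (n = 3 each) and did not pass edgeR's test (adjusted p = 0.136). Its log2 fold change was -0.12, with a 95% interval from -0.26 to 0.0089. IGFBPL1, a related secreted protein, stood at 101 ± 5.80 and 95.6 ± 3.76 CPM (edgeR adjusted p = 0.204). The log2 fold change of -0.085 turned sign with the GC and length correction, to 0.10.

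Proteases outside the set that can cut IGF-binding proteins were then examined. Of 15 listed genes of this kind, counting the pappalysin inhibitor PRG2, 7 could be tested. Of these, 4 fell and none rose by edgeR (57.1% called, beside 37.2% of all genes tested). Their median log2 fold change was -0.36, which is the value of ADAM12, a gene that did not pass, against -0.0077 over all genes. The list was chosen with results of these data known, so nothing is read from the share or the median. C1S, a complement serine protease that cuts IGFBP5, fell from 9.42, 7.55 and 6.98 CPM to 3.39, 4.53 and 3.74 CPM. This is 2.05-fold (log2 fold change -1.04, SE 0.13, edgeR adjusted p = 2.0e-06). CTSD, the lysosomal protease cathepsin D, was at 346, 355 and 267 CPM in control and 197, 192 and 167 CPM in knockdown libraries, and fell 1.74-fold (edgeR adjusted p = 0.00415, SE 0.13 on a log2 fold change of -0.80). HTRA1, a serine protease, fell 1.39-fold (edgeR adjusted p = 5.7e-05), from 17.3 to 20.2 CPM in control libraries to 12.2 to 14.004 CPM in knockdown libraries. In these 3 genes no knockdown library reached a control library. MMP3, the metalloproteinase stromelysin 1, fell 1.25-fold (edgeR adjusted p = 0.0142), but not past the threshold without control library 3 (adjusted p = 0.0555), knockdown library 1 (0.0683) or knockdown library 2 (0.0769). Named after their values were seen, ADAM12, ADAM9 and MMP1 had log2 fold changes of -0.36 (SE 0.29), -0.044 (SE 0.057) and 0.00088 (SE 0.067) and did not pass. ADAM12, at 0.338 to 0.651 CPM, had groups that did not overlap, and a log2 fold change of -0.15 without knockdown library 2. ADAM9 was past the threshold with the GC and length correction (log2 fold change -0.15, edgeR adjusted p = 0.0354). Exons of C1S (with EMG1), MMP3 and MMP1 (with WTAPP1), CTSD and HTRA1 overlap exons of other genes, and the counting command leaves out fragments that hit both, so these counts are less certain.

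**Figure D3:**
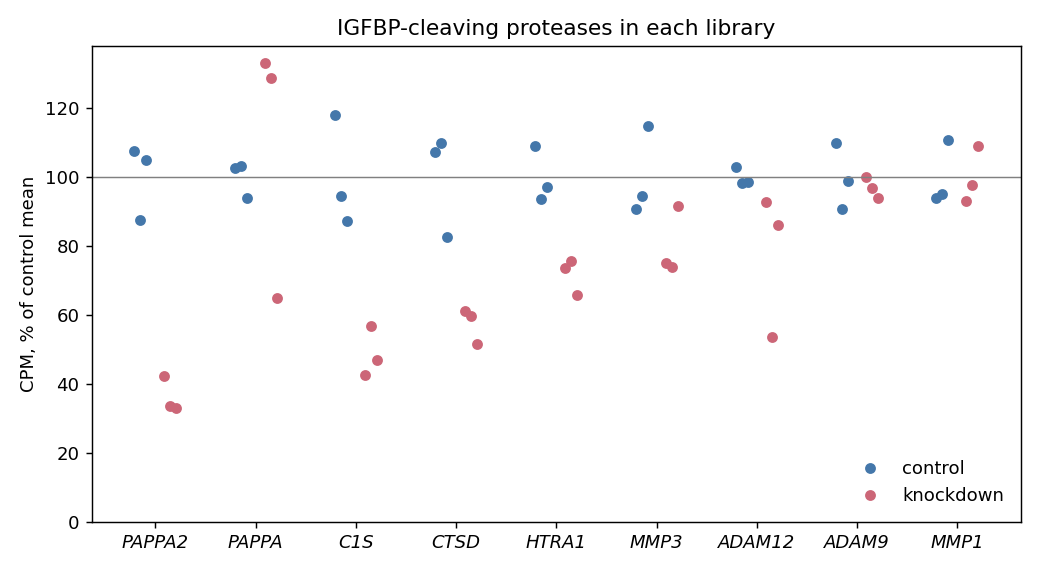
CPM of both pappalysins and of the 7 other tested proteases in each library, as a percentage of the gene's control mean (blue control, red knockdown). The knockdown libraries of PAPPA2, C1S, CTSD, HTRA1 and ADAM12 all lie below their control libraries, though ADAM12 did not pass edgeR's test. The groups of PAPPA, MMP3, ADAM9 and MMP1 overlap.

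Of 5 secreted proteins with an IGFBP-type domain, 2 fell and none rose by edgeR. KAZALD1 fell 1.36-fold, from 26.9 ± 1.81 to 19.8 ± 0.903 CPM (n = 3 each, log2 fold change -0.44, SE 0.07, edgeR adjusted p = 2.4e-05), and its log2 fold change was -0.28 with the GC and length correction. CCN1, a matricellular protein, fell 1.14-fold from 1658 ± 75.3 CPM (log2 fold change -0.18, SE 0.05, edgeR adjusted p = 0.0106), but not past the threshold with the GC and length correction (adjusted p = 0.0562) or without knockdown library 2 (adjusted p = 0.0578). ESM1, the proteoglycan endocan, had the highest log2 fold change of the 74 tested pathway genes and is named for it after the values were seen. It stood at 6.48, 8.17 and 13.3 CPM in control and 18.6, 17.2 and 25.1 CPM in knockdown libraries. The groups did not overlap and the level was 2.18-fold higher (log2 fold change 1.12, SE 0.32), yet the test was not passed (edgeR adjusted p = 0.0581). It was passed without control library 3 (adjusted p = 0.00354), with DESeq2 (adjusted p = 0.00521) and with a filter of 1 CPM in 3 libraries (edgeR adjusted p = 0.0489).

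Receptors and adaptors outside the set showed small changes in both directions. Of the insulin receptor family and the IGFBP3 receptors, 3 were tested and 66.7% called, beside 37.2% of all genes tested. TMEM219, a receptor for IGFBP3, and LRP1 fell (1.14-fold and 1.20-fold, edgeR adjusted p = 0.00537 and 0.0192). LRP1 missed the threshold without control library 1 (adjusted p = 0.0567) and without control library 2 (0.0623), and both genes missed it with the GC and length correction (adjusted p = 0.0986 for TMEM219 and 0.303 for LRP1). Of 14 adaptors and feedback genes 4 rose and 5 fell (64.3% called, beside the same 37.2%), with a median log2 fold change of -0.10. The exchange factor SOS1 rose 1.24-fold, from 53.3 ± 3.77 to 66.0 ± 0.360 CPM (edgeR adjusted p = 0.00011, n = 3 each). The feedback inhibitor SOCS2 fell 1.26-fold (edgeR adjusted p = 0.00037), the insulin receptor substrate IRS2 fell 1.20-fold (adjusted p = 0.00058) and SHC1 fell 1.15-fold (adjusted p = 0.0024, 0.0787 with the GC and length correction). With that correction SOS1 went from 0.31 to 0.19 on the log2 scale (edgeR adjusted p = 0.00807) and IRS2 from -0.27 to -0.14 (adjusted p = 0.046).

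Downstream of the receptor, genes of 1 pathway also went both ways. Exons of ESM1, LRP1, SHC1, SOCS2, IRS2, RICTOR, TSC2, ARAF, M6PR, GNPTAB, GNPTG, IGF2BP3 and STS overlap those of other genes, with the same limit on their counts. Of 25 tested genes of the PI3K, AKT, FOXO and mTOR group 9 rose and 5 fell (median log2 fold change 0.063). This is 56.0% called, beside 37.2% of all genes tested. RICTOR, a subunit of mTOR complex 2, rose 1.24-fold (edgeR adjusted p = 9.2e-05), whereas the kinases AKT2 and GSK3B fell 1.22-fold and 1.23-fold (adjusted p = 5.3e-05 and 6.5e-05). With the GC and length correction the log2 fold changes of RICTOR and AKT2 moved toward 0, from 0.31 to 0.19 and from -0.29 to -0.15, and that of GSK3B went from -0.30 to -0.37, all 3 still past the threshold. TSC2, a brake on mTOR complex 1, fell 1.20-fold (edgeR adjusted p = 0.00012), a call that was lost with the GC and length correction (adjusted p = 0.113). Of 9 tested RAS and ERK genes 2 rose and 3 fell (55.6% called, beside the same 37.2%). The GTPase NRAS rose 1.33-fold, from 188 ± 6.70 to 249 ± 9.15 CPM (edgeR adjusted p = 6.9e-07, n = 3 each), and the kinases ARAF and MAPK3 fell 1.28-fold and 1.24-fold (adjusted p = 1.4e-05 and 3.5e-05). With the GC and length correction ARAF went from -0.36 to -0.23 and MAPK3 from -0.31 to -0.14 on the log2 scale, both still past the threshold. MAP2K2 fell 1.15-fold (edgeR adjusted p = 0.00196), but its log2 fold change of -0.21 became 0.041 under the GC and length correction. HRAS, which lies also on a further sequence of the annotation, had 0 counts in every library.

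IGF2R shares its sorting role with a smaller set of genes. Of 7 mannose 6-phosphate sorting genes 2 rose and 3 fell (71.4% called, beside 37.2% of all genes tested). M6PR, the second mannose 6-phosphate receptor, rose 1.15-fold (edgeR adjusted p = 0.0018), from 104 ± 2.46 to 119 ± 2.19 CPM (n = 3 each). GNPTAB and GNPTG, subunits of the enzyme that makes the sorting tag, went in opposite directions, with log2 fold changes of 0.22 and -0.25 (edgeR adjusted p = 0.0116 and 0.00236). GNPTG missed the threshold with the GC and length correction (adjusted p = 0.0586), and GNPTAB missed it without control library 2 (0.103) and without knockdown library 1 (0.0806). The adaptor GGA1 fell 1.21-fold (edgeR adjusted p = 0.00087, 0.213 with the GC and length correction). Of the IGF2 mRNA-binding proteins, IGF2BP3 rose 1.13-fold (edgeR adjusted p = 0.0287). IGF2BP3 was past the threshold neither with the GC and length correction (adjusted p = 0.287) nor without any of 4 single libraries, control 2, control 3, knockdown 1 or knockdown 2 (adjusted p = 0.0508 to 0.164).

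Over all 93 pathway genes outside the set, 74 were tested, of which 18 rose and 24 fell (56.8% called, beside 37.2% of all genes tested), with a median log2 fold change of -0.073. These lists were chosen with results of these data known, so nothing is read from the gap between the shares, here or for any single list. With the GC and length correction 19 rose and 14 fell.

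**Figure D4:**
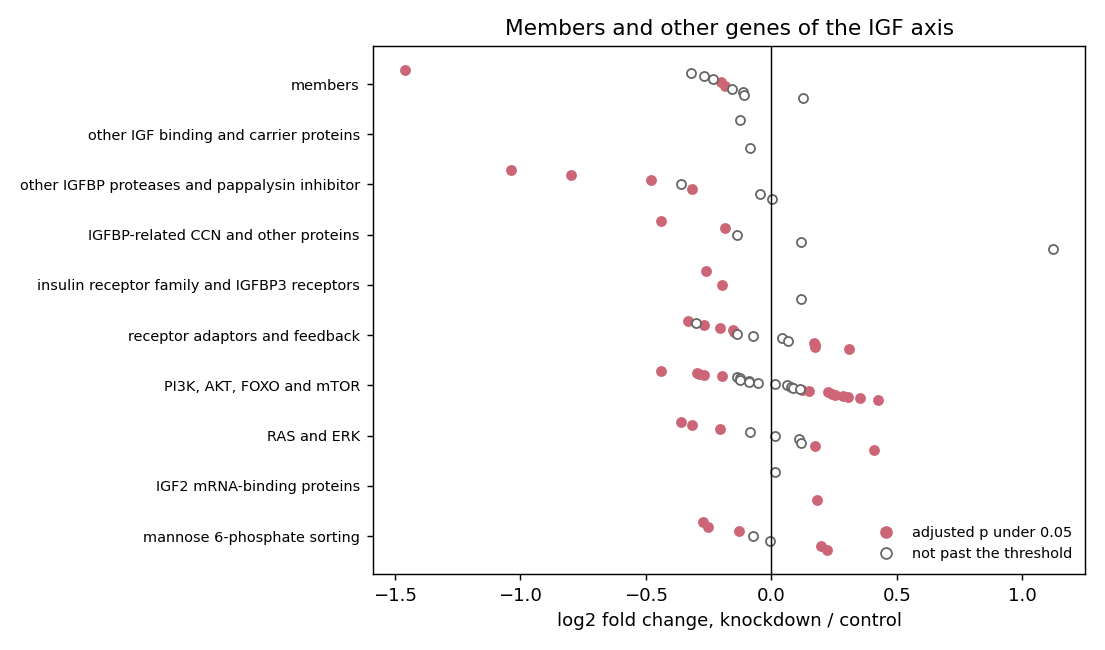
Log2 fold change, knockdown against control, of the 10 members and of the tested pathway genes, 1 row per group (filled, edgeR adjusted p under 0.05, open, not past it). PAPPA2 is the lowest value, the proteases that passed lie to the left of 0, and the signalling groups spread to both sides.

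The profile of PAPPA2 over the 6 libraries was most like those of STS, P3H2 and NEK6. Likeness was measured as the root mean square difference of log2 CPM profiles, each centred on its own mean, over 12302 genes, and came to 0.088, 0.12 and 0.142. STS, a steroid sulfatase, P3H2, a collagen prolyl hydroxylase, and the kinase NEK6 were 2.64-fold, 2.62-fold and 2.52-fold lower after knockdown. The measure follows the size of the difference between the groups, so it ranks genes with a like fold change.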

How the data were processed

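RNA-seq counts were analysed in 3 control and 3 knockdown libraries. The values are whole-number fragment counts per gene symbol that the authors deposited, made, per the file headers, by paired-end counting of GENCODE 32 exons on GRCh38 (featureCounts 1.6.4). The submitters' processing notes also name Trim Galore 0.6.4 and STAR 2.7.1a. The command has no option for strand, multi-mapping or overlapping features. Control columns carry names that match no single control title, so they are numbered in table order, as names only. Nothing says that libraries are separate cultures, so p-values measure the spread between libraries, which may be technical.

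Genes were filtered with filterByExpr (16633 kept), scaled by TMM and tested with edgeR 4.0.16 (quasi-likelihood, robust, two-sided, R 4.3.3) with group as the only term, and p-values were adjusted (Benjamini-Hochberg) across all genes kept, with a threshold of 0.05. The SE is the log2 fold change divided by the square root of F. The code was tested on simulated data. Floors cover counting error only. Alternatives were DESeq2 1.42.0, other scaling and filters, each library left out, a replicate block, and a GC content and length correction (splines of 5 degrees of freedom per library, GENCODE 29 transcripts, 56460 symbols with a GC value).

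Members and lists were chosen with earlier results of these data known. Named genes are all members, VASP, up to 4 genes per list past the threshold by smallest p (the most abundant where none passed), the ligands, IGFBP1, IGFBP2 and IGFBP5, and the 3 genes most like the member with the largest change. The last numbers of the column names were not taken to pair the libraries, and whether libraries were paired is not settled.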

Additional observations from a re-analysis of the deposited data

How the results depend on the processing

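Genes called numbered 6187, against 4842 to 6921 over the alternatives that use all libraries, and 4481 to 6399 when 1 library was left out. Pathway genes called outside the set numbered 42, against 33 to 48, and 32 to 42 when 1 library was left out. Members called numbered 3. They were 6 without a filter on low counts, 8 with the replicate block and 2 with the GC and length correction. With the block and that correction together they were 6 (5 lower and IGFBP6 higher, which the block alone called lower). They were 2 to 6 when 1 library was left out. The block used the last number of each column name. Its libraries deviated together with correlations of 0.14, 0.0456 and 0.446, and control library 2 correlated best with knockdown library 1, so the numbers were not taken to pair the libraries.

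Values near 0 changed sign. When 1 library was left out, the log2 fold change of PAPPA ranged from -0.041 to 0.39, that of IGFBP6 from -0.23 to 0.0022, that of ADAM9 from -0.11 to 0.032 and that of MMP1 from -0.064 to 0.082. With the GC and length correction IGFBP4, IGFBP6, IGFBPL1, MAP2K2 and MMP1 were at 0.039, 0.13, 0.10, 0.041 and -0.040. With the replicate block as well, IGFBP4 was at 0.042, IGFBP6 at 0.13, IGFBPL1 at 0.10, MAP2K2 at 0.041 and MMP1 at -0.039. MMP1 was at -0.0019 with the filter of 1 CPM in 3 libraries. The cause was not tested. Among the members depth limits PAPPA most, at 7 to 15 counts a library, which the exon overlap with PAPPA-AS1 may also lower.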
